A study of Mus musculus with 15 samples.

Results

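Transient regions are stretches that were listed as accessible chromatin in Ikzf KO macrophages after 3 h of lipopolysaccharide (LPS). In lists cut to equal length, they were listed neither before LPS nor after 8 h. Absence from a list does not show that a region was closed. The transient regions were chosen from the 6 hotspot lists of KO cells. Each list was reduced to its 111553 hotspots of highest tag density, hotspots on chromosomes 1 to 19 that shared at least 1 bp were merged, and a region was kept if it was in both 3 h lists and in none of the 4 lists at 0 h and 8 h. This left 1470 of 219209 regions, or 0.671% of all KO regions. Presence in the KO lists at each time is thus the choice itself, and the KO values of these regions are given as a description. The 9 control lists were not used in the choice, and the regions were looked up there.

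Primary macrophages were grown from C57BL/6J bone marrow and given LPS at 10 ng/ml. DNase-seq, which sequences the ends of DNA cut by DNase I, was done after 0, 3 and 8 h. Ikzf KO cells gave 2 libraries at each time, wild-type (WT) cells 2 and a littermate control 1, which makes 15 libraries. The labels give neither the Ikzf gene, the allele nor the littermate's genotype, and do not say if replicates are separate animals. The titles give 100 U of DNase for WT replicate 2 and 80 U for every other library, while the protocol gives 80 U per ml for all. Controls below means the WT and littermate libraries, and the libraries of one genotype and replicate number across the times are called a series.

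LPS comes from the outer envelope of Gram-negative bacteria and activates macrophages through Toll-like receptor 4. The receptor turns on NF-kB and, with interferon produced by the cells themselves, interferon-regulatory and STAT factors, and many early inflammatory genes are switched on and then damped again by induced inhibitors. Active enhancers and promoters are bound by such factors and lose or shift nucleosomes, and DNase I cuts the exposed DNA more readily. Ikaros, the product of Ikzf1, is a zinc finger DNA-binding protein that recruits chromatin-remodelling and histone deacetylase complexes, and it is best known for its role in lymphocyte development. The coordinates are of mouse build mm9. Regions are named by position, since genes, sequences and macrophage markers were not analysed here.

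A hotspot is a stretch in which sequenced tags are denser than the surroundings. The value used here is its highest tag density, which in each list is a whole multiple of one step (within 0.05 steps). If a step is 1 tag, which the sources do not state, the number of steps counts tags. The inverse of the step, relative to the KO list with the smallest step, gives relative depth if all libraries were scaled to 1 total, which is not stated. It was 0.745 and 0.741 for the KO lists of 0 h, 0.848 and 0.826 for those of 3 h, and 0.850 and 1 for those of 8 h. The deposited KO lists held 111553 to 132279 hotspots, littermate lists 52400 to 114427 and WT lists 15659 to 51834. KO lists reached down to Z-scores of 3.40 to 3.66, littermate lists to 3.65 to 4.54, and WT lists to 7.98 to 10.6. A weak region can therefore be in a KO list and fall below the end of a control list, and list length, depth and genotype cannot be told apart in what follows.

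Transient regions lay in the middle and lower ranks of the KO 3 h lists. Their median rank was 76213 in replicate 1 and 74176 in replicate 2, and the best ranks were 17597 and 16662. The highest tag density had a median of 12 steps in replicate 1, with a range of 6 to 53, and a median of 11 in replicate 2, with a range of 5 to 52. At rank 50000 or better lay 184 of the 1470 regions in replicate 1 (12.5%) and 191 in replicate 2 (13.0%). Regions present in all 4 KO lists after LPS and missing from both lists before it are called sustained here. Of the 5040 sustained regions, 34.3% and 35.8% had that rank at 3 h, with medians of 17 and 16 steps. Regions in all 6 KO lists had medians of 34 and 31 steps. The Z-scores of the transient regions had medians of 4.53 and 4.45, close to the lowest Z-scores of 3.54 and 3.58 in these lists.

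The replicates ranked the transient regions alike. Spearman's rho between the ranks in both KO 3 h lists was 0.83 over 1470 regions, a description across regions of 2 libraries. The density was higher in replicate 1 at 723 of them. Both lists were used in the choice and no rho is given for the other sets, so the value is no evidence of reproducibility. The choice of regions in both lists discards most of what each list held at this time: 19629 regions were in the 3 h list of replicate 1 and in no 0 h or 8 h list, and the 1470 make up 7.49% of these. They make up 6.90% of the 21292 such regions of replicate 2. The same shares were 8.54% and 8.25% for 0 h, where 2183 regions were in both lists and in none of another time, and 18.2% and 19.4% for 8 h, with 3489 regions. These last sets are called 0 h-only and 8 h-only regions below, and they serve as the sets most like the transient one, since each was in 2 lists of one time.

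**Figure D1:**
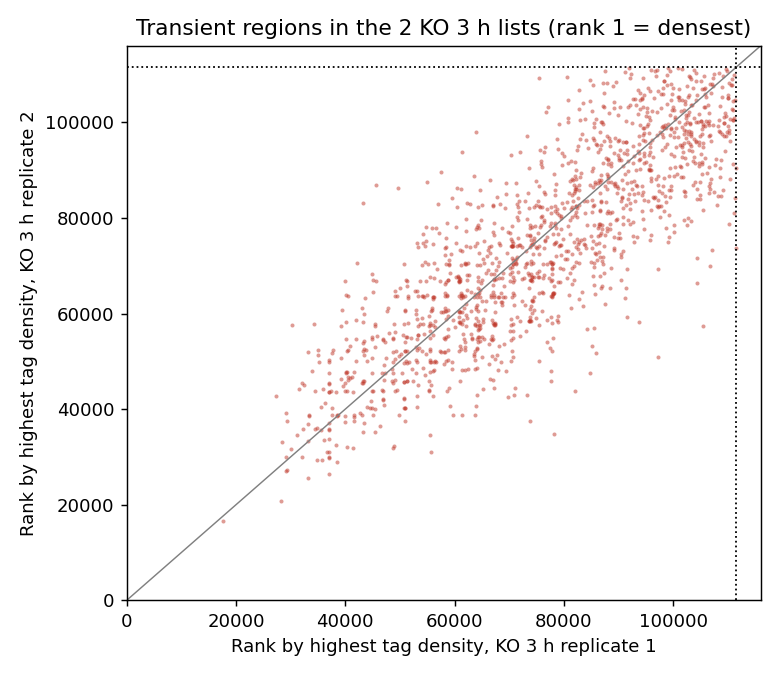
Rank of each of the 1470 transient regions by highest tag density in KO 3 h replicate 1 (x axis) and replicate 2 (y axis), where rank 1 is the densest hotspot. Dotted lines mark the limit of 111553 hotspots and the grey line equal ranks; points follow the line, and few lie at rank 50000 or better in either list.

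The limit on list length fell among ties. The last hotspot kept had 6 steps in KO 3 h replicate 1 and 5 in replicate 2, and the first one left out had the same density in each list. In replicate 1, 6577 of 7753 hotspots at that density were kept, and in replicate 2 2646 of 5012. At 8 h the limit lay at 6 and 7 steps and left out 13698 and 20726 hotspots. Of the transient regions, 63 (4.29%) were in such a left-out hotspot of at least 1 KO list. By list, that was 0 at 0 h in replicate 1, 1 at 0 h in replicate 2, 28 at 8 h in replicate 1 and 44 at 8 h in replicate 2. The other 1407 (95.7%) were also absent from the 4 deposited lists of 0 h and 8 h.

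The 10 strongest transient regions, by the poorer of their ranks in both KO 3 h lists, are called S1 to S10. None of them was in a deposited KO list at 0 h or 8 h. S1, at chr11:117793275-117794152, stood ahead of the others. It had 53 steps in KO 3 h replicate 1 and 52 in replicate 2, with ranks of 17597 and 16662, and it was in no control list. S2, at chr11:8577969-8578643, had 36 and 44 steps in KO at 3 h, and 10 steps in the littermate 8 h list. The remaining control lists did not hold it. S3, at chr4:144814374-144815180, had 35 and 36 steps in KO at 3 h and was in no control list. Its edge lay 3 bp from a region found in all 6 KO lists, so S3 adjoins chromatin that was open at every time.

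S4, at chr7:87921222-87922579, had 35 steps in each KO 3 h list. In controls it was in the littermate 3 h list with 15 steps and in all 3 lists at 8 h, with 72 steps in the littermate and 23 and 25 in WT. The region thus was listed at 3 h alone in KO and at both LPS times in the littermate series, where the 8 h value was the higher one. S5, at chr2:153061302-153062505, had 35 and 32 steps in KO at 3 h, and 24 in the littermate 8 h list. S6, at chr7:29605471-29606934, had 35 and 31 steps in KO at 3 h. S7, at chr19:46626221-46626851, had 32 and 32 steps, and S8, at chr1:133005235-133005858, had 36 and 29. S6, S7 and S8 were in no control list. S9, at chr10:18786342-18786999, had 31 and 37 steps in KO at 3 h, and in controls 32 in WT replicate 1 and 21 in the littermate, both at 8 h. S10, at chr17:17985847-17986405, had 31 and 29 steps in KO at 3 h, and 25 in the littermate 8 h list. In all, 5 of the 10 were in no control list, as were 76.3% of all transient and 62.8% of all KO regions. The other 5 were in controls at 8 h, with S4 the one also listed at 3 h. At least 1 control 8 h list held 20.3% of all transient and 34.9% of all KO regions.

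**Figure D2:**
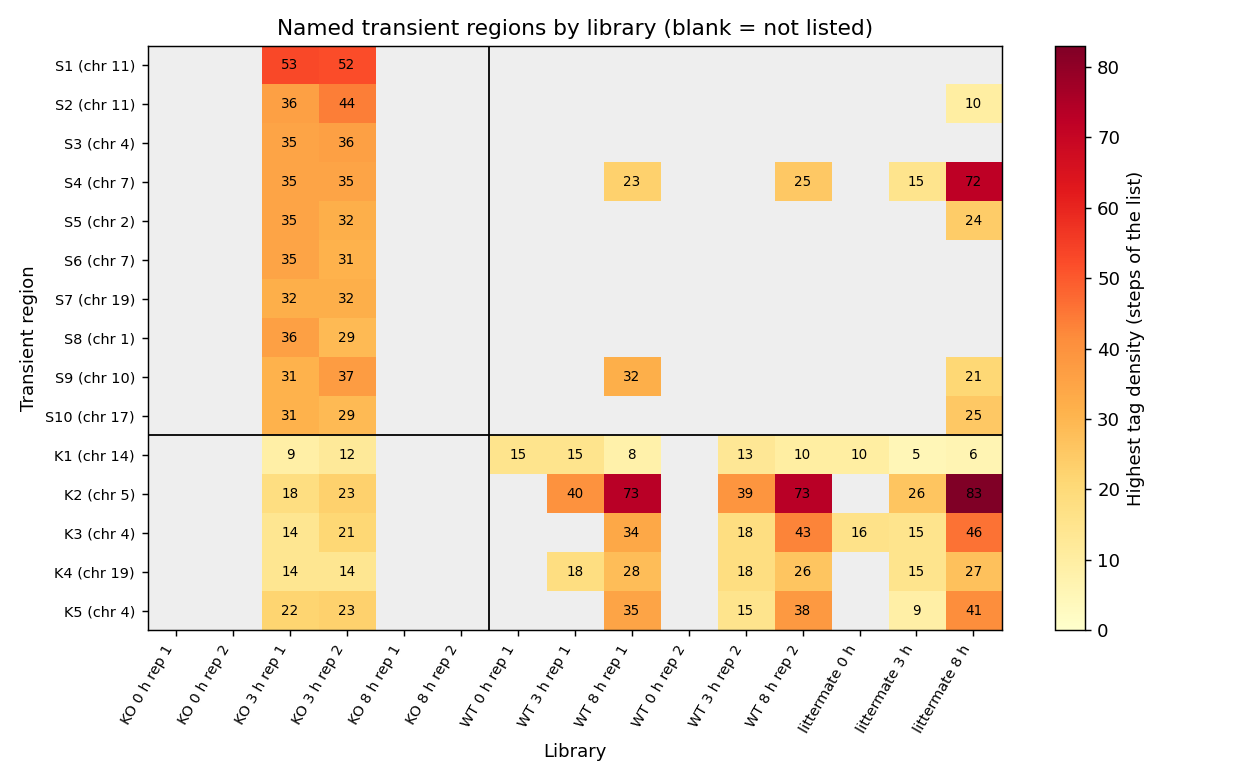
Highest tag density, in steps of each list, of transient regions S1 to S10 (the strongest in KO at 3 h) and K1 to K5 (those in the most control lists) in every library, KO at the left and controls at the right of the black line. Blank cells mark lists without a hotspot there. At 3 h K2 has 40 and 39 steps in WT and 26 in the littermate, against 18 and 23 in KO. It reaches 73 to 83 steps in the control 8 h lists and is in no KO list at 8 h. Step size differs between lists.

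Most transient regions were in no control list at any time. As deposited, the 9 control lists held 348 of the 1470 in at least 1 list (23.7%, Wilson 95% interval 21.6 to 25.9), while 37.2% of all KO regions were in at least 1. The other 1122 (76.3%, 74.1 to 78.4) were in none, beside 62.8% of all KO regions. Of the 0 h-only regions 69.6% were in no control list (67.6 to 71.5), of the 8 h-only regions 64.8% (63.2 to 66.4) and of the sustained regions 37.9% (36.6 to 39.3). Intervals cover counting error alone, neighbouring regions are not independent, and no test was made over the chosen regions. The share in at least 1 control list was 4.63% without the littermate series, beside 21.9% of all KO regions, and 11.8% with lists equally long within each series, beside 26.3%. It was 56.0% with KO lists of 0.5 times the length, where the same rule chose 962 regions, beside 83.5%. In each of these settings the share of transient regions was below that of all KO regions. That background includes the 57738 regions in all 6 KO lists, which the rule bars. Of those, 90.5% were in at least 1 control list, so a lower share than all KO regions partly follows from the choice, here and below. In these 3 settings, in the same order, 0 h-only regions were at 5.77%, 17.7% and 66.7%. The 8 h-only regions were at 9.03%, 14.0% and 63.3%. Among the 348 regions, 252 were in 1 control list, 53 in 2, 21 in 3 and 12 in 4. In 5 or more were 10 (0.680%), beside 11.8% of all KO regions, and in all 9 were 0 of 1470, beside 4.61%. At least 1 control list of 0 h held 37 (2.52%), beside 17.8%, at least 1 of 3 h held 81 (5.51%), beside 15.2%, and at least 1 of 8 h held 299 (20.3%), beside 34.9%.

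The same pattern was looked for in controls. No transient region was in all 3 control 3 h lists and absent from the 6 control lists at 0 h and 8 h, and none was in 2 control 3 h lists with that absence. Over all KO regions the count was 0 of 219209 (0%) for the first pattern and 2 (0.000912%) for the second, so the count of 0 is no different from the background. A single control 3 h list and no other time held 29 transient regions (1.97%, 1.38 to 2.82), beside 0.769% of all KO regions, 1.51% of 0 h-only and 0.401% of 8 h-only regions. All 29 were in the littermate 3 h list. In controls at 8 h alone were 240 transient regions (16.3%), which is near the 15.8% of all KO regions. Of these, 203 (13.8% of the transient regions) were in the littermate 8 h list and in no other control list, beside 10.7%. The littermate 8 h list held 114427 hotspots and its 3 h list 52400, so the counts at 8 h and 3 h come from unequal lists. At 0 h alone, controls held 19 (1.29%), beside 1.38%.

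In the littermate series the transient regions were listed more often after LPS than before it. The deposited lists held 35 of them at 0 h (2.38%, 1.72 to 3.29), 80 at 3 h (5.44%, 4.39 to 6.72) and 295 at 8 h (20.1%, 18.1 to 22.2). All KO regions were held at 17.4%, 14.8% and 34.8%, with 8 h the longest list and 3 h the shortest. With the 3 lists made equally long, at 52400 hotspots, the counts were 25 at 0 h (1.70%, 1.15 to 2.50), 80 at 3 h (5.44%) and 105 at 8 h (7.14%, 5.94 to 8.57). All KO regions were then held at 16.5%, 14.8% and 21.7%. The 0 h-only regions followed another order in these equal lists, with 12.0% at 0 h, 5.04% at 3 h and 6.18% at 8 h. The 8 h-only regions were at 2.06%, 1.49% and 11.6%, and the sustained regions at 3.39%, 12.7% and 34.6%. At 3 h the littermate list therefore held the transient and the 0 h-only regions at shares whose intervals overlapped (4.39 to 6.72 and 4.20 to 6.04), and the 8 h-only regions at a lower one (1.14 to 1.95). There is 1 littermate library per time, so the order of the times has no replicate check in this genotype.

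WT lists, which end at much higher Z-scores, held few transient regions. At 0 h each WT list held 2 of 1470 (0.136%), beside 6.83% and 8.38% of all KO regions. At 3 h replicate 1 held 4 (0.272%) and replicate 2 held 10 (0.680%), beside 6.24% and 7.77% of all KO regions. At 8 h they held 47 (3.20%) and 50 (3.40%), beside 18.7% and 20.1%. In lists made equally long within each series, WT replicate 1 held 1 transient region at 0 h, 4 at 3 h and 6 at 8 h, beside 6.38%, 6.24% and 6.68% of all KO regions. WT replicate 2 held 1, 10 and 6, beside 7.98%, 7.77% and 8.48%. Both WT series thus had their lowest count at 0 h, as the littermate series did, and they differed in whether 3 h or 8 h was the higher. These WT counts are small. The interval at 0 h, 0.0120% to 0.384% in each series, overlapped those at 3 h (0.106% to 0.698% and 0.370% to 1.25%) and at 8 h (0.187% to 0.888% in each).

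**Figure D3:**
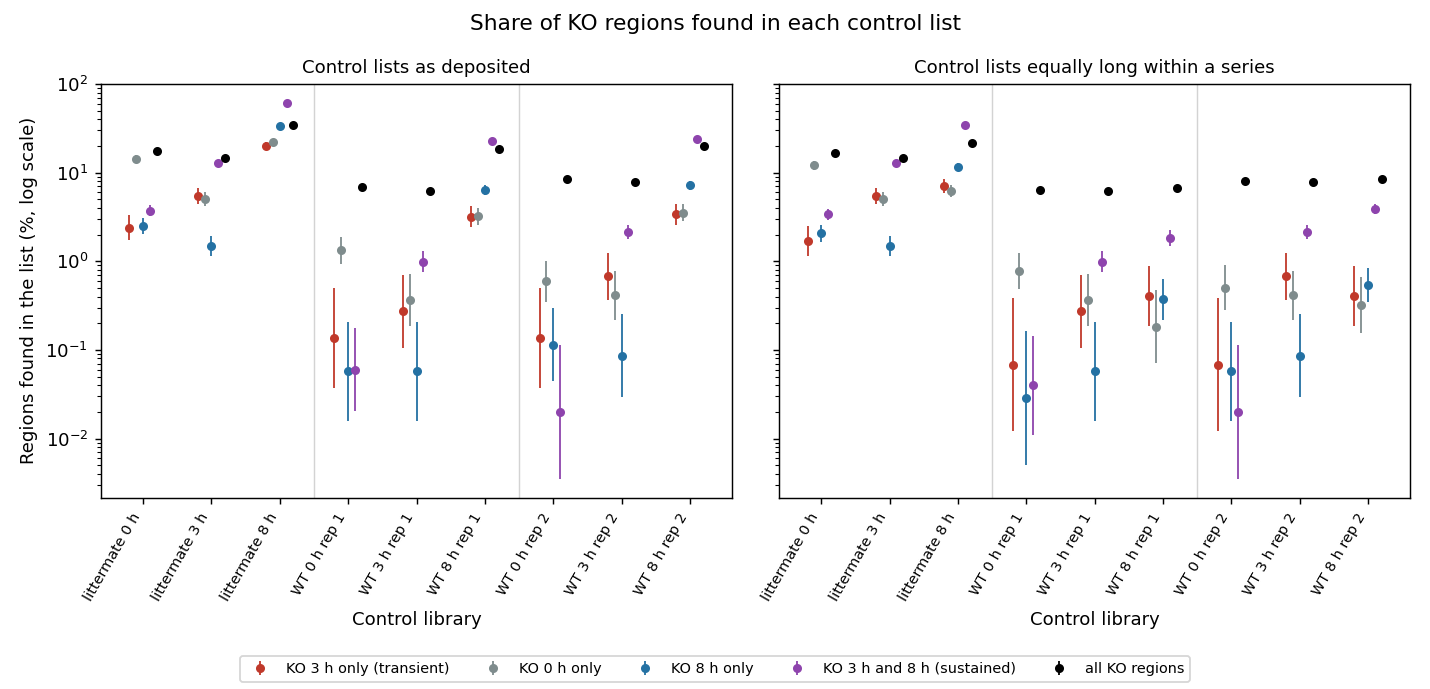
Share of KO regions found in each control list, on a log scale, with lists as deposited (left) and made equally long within a series (right); bars are Wilson 95% intervals of counting. In the equally long littermate lists the transient regions are at 1.70% at 0 h, 5.44% at 3 h and 7.14% at 8 h, while the 0 h-only regions are highest at 0 h.

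A few transient regions of KO were found widely in controls. The 5 in the most control lists are called K1 to K5. At K2 to K5 the control density had more steps at 8 h than at 3 h in every series that listed both. Step size differs between lists, so these counts are not on a common scale. Ranks by density were poorer at 8 h in these series, except for K5 in the littermate, and the 8 h lists are longer. K2, at chr5:92774616-92775904, had 18 and 23 steps in the KO 3 h lists and was in no KO list at 0 h or 8 h. In controls it was in every list after LPS and in none at 0 h, with 40 and 39 steps in WT and 26 in the littermate at 3 h, and 73, 73 and 83 at 8 h. Its best rank at 3 h was 42702 in KO, against 4178 in WT replicate 2 and 4480 in the littermate, so it ranked higher in these shorter control lists. K4, at chr19:20498572-20499173, showed the same presence, with 14 steps in each KO 3 h list. In controls it had 18, 18 and 15 steps at 3 h and 28, 26 and 27 at 8 h. K2 and K4 were thus listed at 3 h alone in KO, and at 3 h and 8 h in all 3 control series.

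K5, at chr4:61935670-61936437, had 22 and 23 steps in KO at 3 h. In controls it had 15 steps in WT replicate 2 and 9 in the littermate at 3 h, and 35, 38 and 41 at 8 h. K3, at chr4:134474300-134474781, had 14 and 21 steps in KO at 3 h. In controls it was in the littermate list with 16 steps at 0 h, in WT replicate 2 and the littermate with 18 and 15 at 3 h, and in all 3 lists with 34, 43 and 46 at 8 h. K1, at chr14:45292590-45292949, differed from the rest: it is 359 bp long, had 9 and 12 steps in KO at 3 h, and was in 8 control lists, at 0 h, 3 h and 8 h, with 5 to 15 steps. Over all 1470, 3 regions (0.204%) were in all 3 control 3 h lists, namely K1, K2 and K4, beside 5.66% of all KO regions. In both WT 8 h lists were 29 (1.97%), beside 17.2%.

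The 29 regions held by the littermate 3 h list and by no control list of another time share the transient pattern in 1 control library. The strongest 5 in KO, picked after their values were seen, are called T1 to T5. T1, at chr2:131943118-131944174, had 27 and 25 steps in KO at 3 h, and 11 in the littermate. T5 lies near it at chr2:131956965-131957630, with 24 and 21 steps in KO and 10 in the littermate. T2, at chr4:134491738-134492606, had 25 and 26 steps in KO and 12 in the littermate. It lies 16957 bp from K3, a region that all 3 control series listed at 8 h. T3, at chr3:122025036-122025647, had 24 steps in each KO list and 11 in the littermate. T4, at chr9:7282784-7285291, had 24 steps in each KO list and 7 in the littermate. Without the littermate 3 h library no transient region had the pattern in controls.

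Another transient region was within 10 kb of 168 transient regions (11.4%), and the median distance to the nearest was 393372 bp. One of their own kind within 10 kb had 4.40% of the 0 h-only, 9.29% of the 8 h-only and 19.5% of the sustained regions, sets that are larger. The order of the first 3 sets changed when a KO replicate was left out, which leaves 1 list per time and makes the sets far larger. Without KO replicate 1 the shares were 26.0% of 24576 transient, 29.1% of 30108 0 h-only and 26.8% of 24161 8 h-only regions. Without KO replicate 2 they were 26.6% of 24061, 28.8% of 29188 and 24.1% of 23564. A transient region lay within 10 kb of 1.65% of 0 h-only regions, 1.89% of 8 h-only regions, 4.37% of sustained regions and 2.01% of all KO regions. Sustained regions were also near: 216 transient regions (14.7%) had one within 10 kb, against 4.35% of 0 h-only, 11.2% of 8 h-only and 6.32% of all KO regions. Within 1 kb of a region in all 6 KO lists lay 289 transient regions (19.7%), against 13.5% of 0 h-only, 15.8% of 8 h-only and 11.3% of all KO regions. The shares also depend on how hotspots are merged into regions. With merging only at an overlap of 100 bp or more, 26.1% of transient, 18.7% of 0 h-only and 15.8% of 8 h-only regions had one of their own kind within 10 kb. No test was made of these shares.

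**Figure D4:**
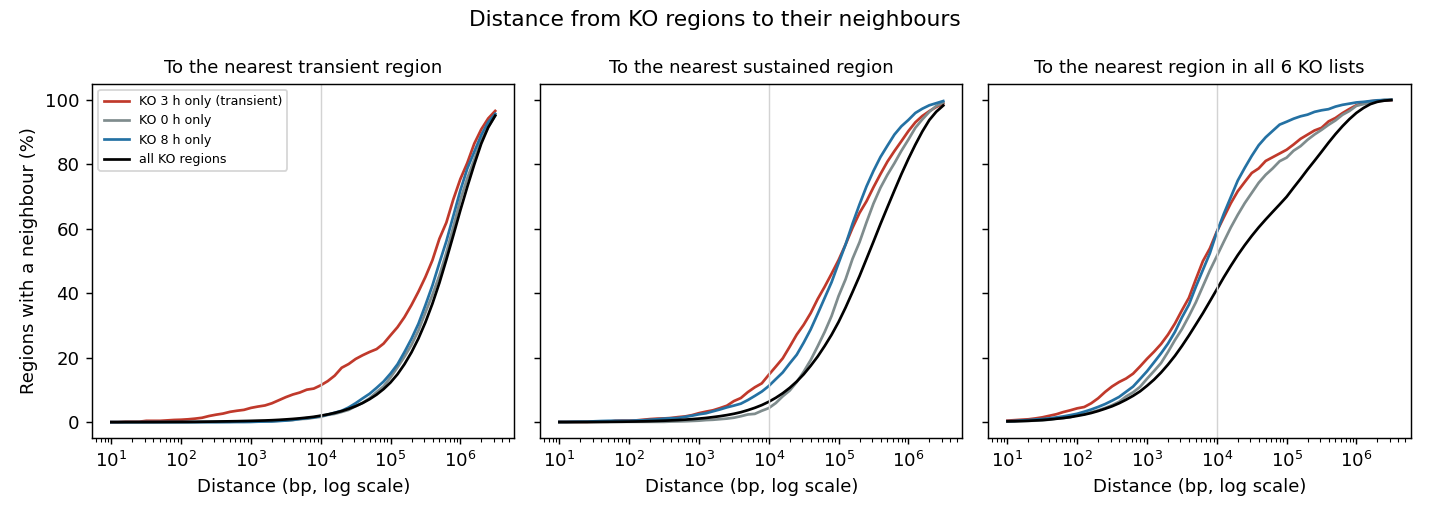
Share of regions with a neighbour within a given distance (x axis, log scale), for the nearest transient region (left), sustained region (middle) and region in all 6 KO lists (right); the grey line marks 10 kb. In the left panel the transient regions reach 11.4% at 10 kb, and the other sets drawn lie between 1.65% and 2.01% from a transient region, while 9.29% of 8 h-only and 4.40% of 0 h-only regions have one of their own kind within 10 kb, which is not drawn.

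Strength and neighbourhood went together among the transient regions. Sorted by the poorer 3 h rank into 4 groups of 367 or 368, the strongest (ranks 17597 to 64313) had another transient region within 10 kb in 26.6% of cases and the weakest (96585 to 111534) in 2.17%. A sustained region lay within 10 kb of 25% of the strongest and 1.36% of the weakest. The median distance to a region in all 6 KO lists was 2659 bp in the strongest group and 105013 bp in the weakest, which lay far from constantly open chromatin. In at least 1 control list were, from the strongest group to the weakest, 26.6%, 28.1%, 24.3% and 15.8%. The strongest and weakest 0 h-only groups were there at 41.0% and 18.1%, and the 8 h-only groups at 41.5% and 25.6%, so the sets most like the transient one had lower shares in their weakest groups too. The 0 h-only regions showed the like in distance, with 3296 bp in their strongest group and 122660 bp in their weakest. The 8 h-only regions had a smaller rise, from 3891 bp to 23144 bp. A sustained region lay within 10 kb of 5.86% of the strongest and 1.65% of the weakest 0 h-only regions. For the 8 h-only regions these shares were 17.5% and 4.93%. In having one of their own kind within 10 kb, the 0 h-only groups were at 8.97% and 1.65%, and the 8 h-only groups at 10.9% and 5.62%.

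Some closely spaced regions formed chains. With transient regions joined when 50 kb or less apart, a distance set after the data were seen, 1150 stood alone and 320 (21.8%) fell into 120 chains of 2 or more. Of the 8 h-only regions a larger share did so, 906 (26.0%) in 403 chains, and of the 0 h-only regions 298 (13.7%) in 140. Chains of 4 or more numbered 23 and held 115 transient regions (7.82%). The larger 0 h-only set formed 2 such chains, with 8 regions (0.366%), and the larger 8 h-only set 16, with 70 regions (2.01%). With KO lists of 0.5 times the length the order changed: 10 chains of transient, 14 of 0 h-only and 7 of 8 h-only regions were found, among 962, 2462 and 1405 regions. With presence only where hotspots cover 50% of a region, the counts were 17, 6 and 49. The 23 chains spanned 4.08 to 113 kb and held 336 KO regions, of which 115 were transient, 17 sustained, 58 in all 6 lists, and 0 were 0 h-only or 8 h-only. Of all 219209 KO regions, 5040 were sustained, 57738 in all 6 lists, 2183 0 h-only and 3489 8 h-only. The last 2 sets are small, so their count of 0 among 336 regions is not read as an exclusion.

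The largest chain, G1, lies at chr2:11393164-11416217 and holds 11 transient regions in 23.1 kb. Some of these lie 13, 26 or 95 bp from the nearest other one, so the 11 need not be separate sites. All 11 had 17 to 28 steps in replicate 1 and 18 to 28 in replicate 2 of KO at 3 h. Hotspots of the KO lists covered 1.85% and 0% of the span before LPS, 51.9% and 50.7% after 3 h, and 2.79% and 7.83% after 8 h. Control lists held no hotspot in the span, except the littermate 8 h list with 3. The span also holds 1 sustained region and no region in all 6 KO lists.

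G2, at chr7:95429039-95455669, holds 8 transient regions, and KO lists had 1 and 1 hotspots in it before LPS, 14 and 14 after 3 h, and 1 and 2 after 8 h. The littermate 8 h list had 2, and the other control lists had 0. G3, at chr5:99652961-99676766, holds 7 transient and 3 sustained regions. KO lists had 0 and 1 hotspots there before LPS, 18 and 15 after 3 h, and 3 and 7 after 8 h, while no control list had any. G4, at chr16:35834021-35859864, holds 7 transient and 2 sustained regions, with 1 and 0 hotspots in KO before LPS, 16 and 15 after 3 h, and 3 and 7 after 8 h. In controls, the littermate had 1 hotspot in G4 at 3 h and 2 at 8 h, and WT lists had 0 or 1. Chains G1 to G4 span 23.1 to 26.6 kb, and each KO list of 0 h had at most 1 hotspot in each of them.

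G5 and G6 are of another kind, with transient regions between constantly open ones. G5, at chr1:132941654-133005858, holds 6 transient regions, S8 among them, and 9 regions in all 6 KO lists. KO lists had 11 and 11 hotspots there before LPS, 19 and 24 after 3 h, and 15 and 13 after 8 h, and the littermate lists had 10 at 0 h, 10 at 3 h and 16 at 8 h. G6, at chr1:192933586-193046252, also holds 6 transient regions and 9 in all 6 lists. The most compact chain, G20, at chr11:50015900-50019981, has 4 transient regions in 4.08 kb, which KO lists covered to 62.4% and 57.9% at 3 h. No KO list at 0 h or 8 h and no control list had a hotspot in it. Over the 23 chains the median number of hotspots per chain was 2 and 2 in KO before LPS, 13 and 12 after 3 h, and 3 and 4 after 8 h. In WT it was 0 in each list before LPS and after 3 h and 1 in each after 8 h, and in the littermate it was 1, 1 and 3. After 8 h KO hotspots covered a median of 9.04% and 9.33% of a span, and littermate hotspots 9.07%. Spans were drawn around the transient regions, so the KO values follow from the choice; the control values do not. Of the 115 chained regions, 19 (16.5%) were in at least 1 control list, beside 23.7% of all transient and 37.2% of all KO regions.

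**Figure D5:**
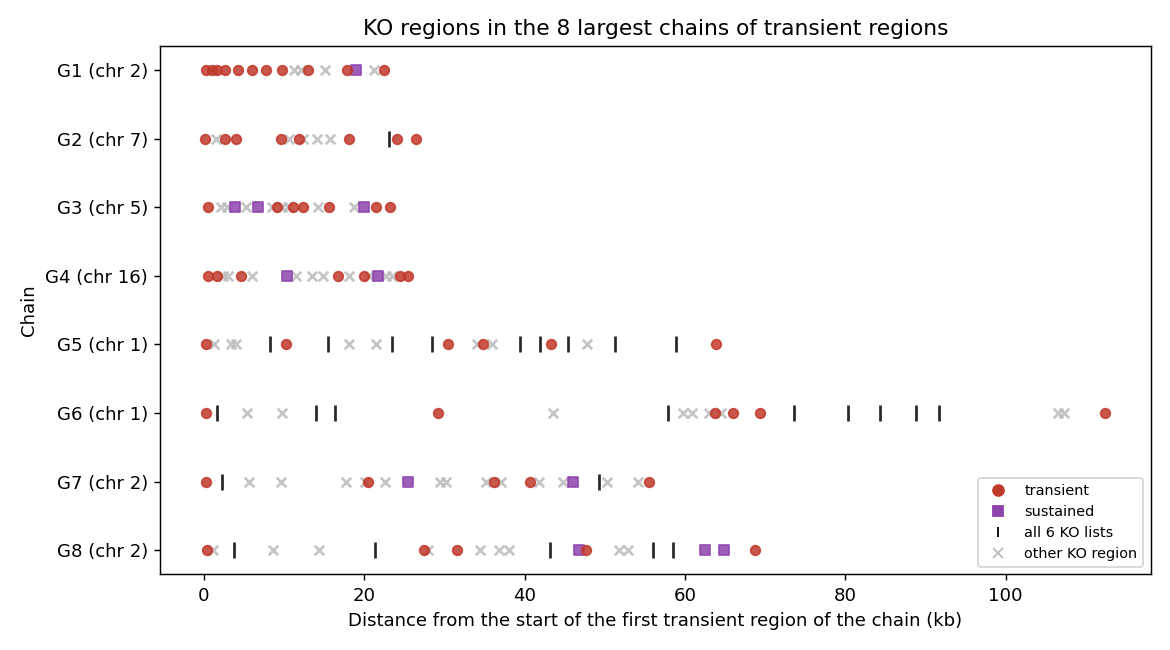
Position of KO regions in the 8 largest chains, as distance in kb from the start of the first transient region (x axis), 1 chain per row. G1 to G4 hold 7 to 11 transient regions in 23.1 to 26.6 kb with 0 or 1 region in all 6 KO lists, and G5 and G6 hold 9 such regions each.

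Transient regions occurred on every chromosome from 1 to 19. Chromosome 2 held 148 (10.1%), the most, and chromosome 11 held 119 (8.10%). Per 1000 KO regions, there were 10.3 transient ones on chromosome 11, 8.69 on chromosome 2 and 7.84 on chromosome 6. The lowest values were 4.94 on chromosome 18 and 4.99 on chromosome 4. Chromosomes 2 and 11 also held 5 chains each, with 29 and 20 transient regions. The transient regions had a median of 562 bp from start to end, against 473 bp for all KO regions, and a range of 256 to 4170 bp. The 0 h-only regions had a median of 559 bp, the 8 h-only regions 602 bp, and the sustained regions, which merge hotspots of 4 lists, 902 bp.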

How the data were processed

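DNase-seq hotspot lists of 15 libraries were used. Short fragments of DNase-digested nuclei were sequenced from one end, per the labels' protocols. CASAVA and build mm9 are named by the submitters' processing notes. The sources used here name no aligner, hotspot caller or threshold. Hotspots were deposited per library with their maximal and average tag density (a signal), Z-score (a score) and p-value, per the file headers. The deposited p-value was not used. Read depth is unknown and density scaling not stated.

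Lists were ranked by highest density, with ties by mean density and position, over all chromosomes. Chromosomes 1 to 19 were then kept. Regions overlapped if they shared at least 1 bp, with ends not counted. The members, sets and comparisons were chosen with earlier results of these data known. Motifs, gene lists and markers listed in the design were not analysed here. Named regions were the 10 strongest by the poorer 3 h rank, the 5 of those in no control list, and the 5 in the most control lists. Regions passing as transient in all control 3 h lists were to be named too, and there were none. Chains were added after the data were seen. Region finding was tested on simulated lists. Python 3.11.15, NumPy 2.4.6, pandas 2.3.3, SciPy 1.17.1 and matplotlib 3.10.9 were used.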

Additional observations from a re-analysis of the deposited data

How the results depend on the processing

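No paired analysis was possible because the results come from no test. The number of transient regions stayed between 1469 and 1727, near the 1470 reported, when hotspots were ranked by Z-score, KO lists were used as deposited, 50% of a region had to be covered, merging needed 100 bp, X and Y were added, or both ends were counted. It was 962 with KO lists of 0.5 times the length, where 0.936% were in all 3 control 3 h lists, 56.0% in at least 1 control list and 44.0% in none. Leaving out 1 KO replicate leaves 1 list per time and gave 24061 to 24576 regions. With 1 KO, WT or littermate series left out in turn, the share in all control 3 h lists ran from 0.0457% to 0.612%, in at least 1 control list from 4.63% to 23.6% and in none from 76.4% to 95.4%. With 50% of a region covered, 21.3% were in at least 1 control list, beside 30.6% of all KO regions, and 78.7% in none. With control lists as short as the shortest, the shares were 1.63% and 98.4%. In at least 1 of these short lists were 11.1% of all KO, 1.97% of 0 h-only and 1.20% of 8 h-only regions. The transient share was thus above the 8 h-only share there, while in the main setting it was below, at 23.7% against 35.2%. In alternatives added after seeing the data they were 11.8% and 88.2% with control lists equally long within a series, and 20.3% and 79.7% with control 8 h lists alone. Chains of 4 or more numbered 10 to 28 over the alternatives that kept both KO replicates. Depth is unknown, and a region below the end of a list cannot be told from one that was closed.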
